A study of Homo sapiens with 8 samples.

Results

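The RNA levels of 47 genes of autophagy and of the lysosome were examined in LP-1 cells, a human multiple myeloma cell line, after bromodomain inhibition. The genes were taken by symbol from a list of transcription factors, autophagy proteins, lysosomal membrane proteins, hydrolases and proton pump subunits, and all 47 were found among the 63129 rows of the RNA-seq table. Of these, 44 had a mean of at least 1 RPKM (a read count scaled to the length of the transcript and to the depth of the library) over the 8 libraries, and 43 were among the 14732 genes tested. The other genes were BECN1, which had no value in 2 libraries, and MITF, CTSS and MAP1LC3A, which had means under 1 RPKM. The RNA was collected 6 hr after treatment in 2 experiments of 4 libraries. In the first experiment, 2 libraries were treated with 2.5 µM SGC-CBP30, an inhibitor of the bromodomains of the acetyltransferases CBP and EP300, and 2 with DMSO, the solvent. In the second, 2 libraries were treated with 0.25 µM CPI203, an inhibitor of the BET family of bromodomain proteins, and 2 with DMSO. All values therefore describe 1 cell line at 1 time point and 1 dose of each compound, and the doses of the compounds differed.

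Autophagy encloses proteins and organelles in a double membrane, the autophagosome, which then fuses with the lysosome, where acid hydrolases degrade the contents. Assembly begins with the ULK1 kinase and a lipid kinase complex built around Beclin 1, and continues with proteins that enlarge the membrane and with a conjugation system that attaches ATG8 proteins such as LC3B to lipid. Receptors such as p62 bind both ATG8 proteins and the cargo. TFEB, TFE3 and MITF are related transcription factors that bind E-box sequences in promoters of lysosomal and autophagy genes. Plasma cells and myeloma cells make large amounts of secretory protein, and autophagy is known to support their survival alongside the proteasome.

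The E-box bound by these factors, known as the CLEAR element, has the core CACGTG. Windows from 250 bases before to 50 bases after the RefSeq start were available for 38 of the 47 genes, and both strands were searched for 3 nested sequences, of which CACGTG and TCACGTGA read the same on either strand. CACGTG lay in 10 of the 38 windows (26.3%), against 8.77% of the 27305 genes with a window. TCACGTG, which contains the same core with a preceding T, lay in 9 (23.7%), against 4.49% of all genes. TCACGTGA, the core extended by a base on each side, lay in 6 (15.8%), those of ATG3, ATP6V0D1, CTSA, GAA, LAMP1 and MCOLN1, against 1.18% of all genes. The list holds genes of the kind these factors are known to bind, so higher shares are not a finding of these data. The background was every gene with a window, expressed or not, and a gene with several starts counted if any window held the sequence. The stretches below, from RefSeq on build GRCh38.p14, are of the 5 genes with more than 1 copy in the window and of a proton pump subunit with 1 copy. The capitals mark the core CACGTG.
LAMP1, chr13:113297035-113297114, plus strand: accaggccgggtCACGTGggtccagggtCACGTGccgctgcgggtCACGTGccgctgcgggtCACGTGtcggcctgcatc
GAA, chr17:80101493-80101567, plus strand: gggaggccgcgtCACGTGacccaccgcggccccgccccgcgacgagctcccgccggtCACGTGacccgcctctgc
MCOLN1, chr19:7522571-7522623, plus strand: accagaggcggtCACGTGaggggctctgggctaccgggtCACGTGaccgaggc
CTSA, chr20:45891281-45891327, plus strand: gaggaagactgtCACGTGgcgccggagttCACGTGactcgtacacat
ATG3, chr3:112561963-112561992, minus strand: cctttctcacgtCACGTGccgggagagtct
ATP6V0D1, chr16:67481199-67481228, minus strand: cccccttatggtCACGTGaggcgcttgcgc

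The LAMP1 stretch, upstream of the gene of a major lysosomal membrane protein, held 4 copies, and its whole window held 6. The stretches of GAA, the lysosomal alpha-glucosidase, MCOLN1, a lysosomal calcium channel, and CTSA, a lysosomal carboxypeptidase, held 2 copies each. The stretch of ATG3, which encodes a conjugation enzyme, held 1 of the 2 copies in its window, the other lying after the start. A match describes these letters in these windows and is not a measured binding site.

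**Figure D1:**
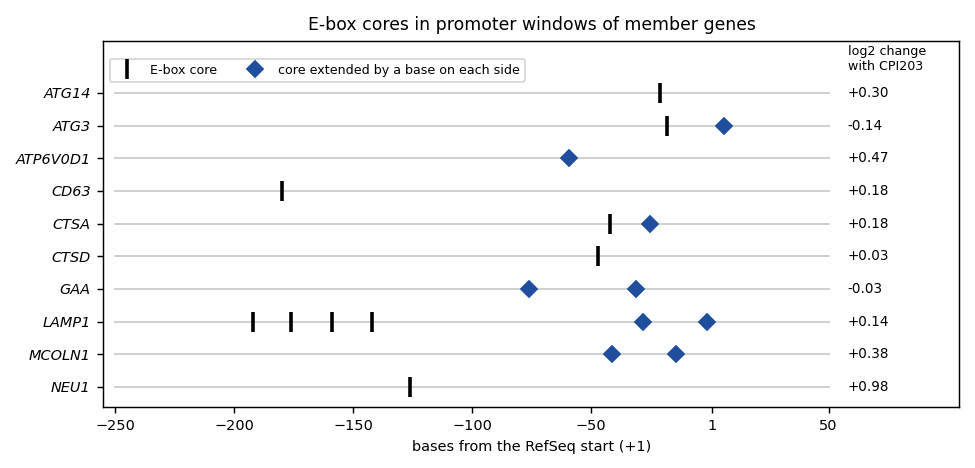
Positions of the E-box core in the promoter windows of the 10 genes that hold it, in bases from the RefSeq start, with diamonds for the core extended by a base on each side and the log2 change with CPI203 at the right. LAMP1 holds 6 cores, while NEU1, with the largest change of the 10, holds 1.

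The estimated depth was between 26000000 and 34400000 reads in 6 libraries and 46800000 and 50100000 in the SGC-CBP30 libraries, so SGC-CBP30 libraries were deeper than their controls. Replicates were close, with log2 differences that had an SD of 0.0909 to 0.115 over the 8298 genes at 10 RPKM or above. The identity of the cells was checked with 8 plasma cell markers, among them SDC1, CD38 and IRF4, which were between 10.9 and 531 RPKM. The 8 marker genes of T cells, myeloid cells, epithelium and fibroblasts, including CD3E, CD14 and COL1A1, were at most 0.234 RPKM, and MPO and EPCAM were at 0 throughout. The DMSO libraries of the experiments were not alike for all genes. The mean RPKM of the 43 genes in the DMSO cells treated beside CPI203 was between 0.765 times (OPTN) and 1.29 times (CTSB) that in the DMSO cells treated beside SGC-CBP30, so each compound was compared only with its own DMSO.

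The autophagy and lysosome genes were abundant in LP-1 cells. Their median over the 8 libraries was 38.5 RPKM, against 12.8 RPKM for all genes tested, and 34 of the 43 lay above the median of all genes. Means ran from 2.71 RPKM for ATG14, a subunit of the lipid kinase complex, to 292 RPKM for SQSTM1, which encodes the cargo receptor p62. PSAP, the precursor of the saposins that assist lipid degradation, followed at 246 RPKM, and CD63, a lysosomal membrane protein, and GABARAP, an ATG8 protein, were each at 174 RPKM. MAP1LC3A, which encodes LC3A, was at most 0.0539 RPKM in any library. The summed RPKM of the 43 genes was 2257 and 2316 in DMSO and 2408 and 2405 with SGC-CBP30. In the other experiment it was 2234 and 2208 in DMSO and 3032 and 3017 with CPI203. The summed level thus lay higher in both treated libraries of each experiment, by a larger step with CPI203. The sum weighs abundant genes most, and SQSTM1 had the largest rise with each compound. With SGC-CBP30 the rise of SQSTM1 alone was nearly as large as the step. The median log2 change with SGC-CBP30 was 0.07 both for the 43 genes and for all genes, so the sum does not show a rise of the set. In bulk RNA, a change in the RNA of every cell and a change in the share of cells with high levels cannot be told apart.

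Most of these genes had a higher RPKM with CPI203 than in DMSO. RPKM is scaled to the depth of each library, so these are relative levels, and the RNA per cell was not measured. Of the 43, 32 (74.4%) were higher than in DMSO at an adjusted p under 0.05 (limma with Benjamini-Hochberg adjustment over all genes tested), against 31.1% of all genes tested. Only TFEB, ATG3 and CTSZ were lower among those tested (6.98%), against 33.1% of all genes, and 8 did not pass in either direction. The median log2 change was 0.27 over the 43 genes and -0.01 over all genes. The list was chosen with earlier results of these data known, so shares set beside those of all genes are descriptive. At 1.5-fold or more, 9 were higher (20.9%, against 13.4% of all genes) and 0 were lower (against 14.4%). These 9 were SQSTM1, ULK1, OPTN, GABARAPL1, ATG2A, NEU1, MAP1LC3B, WIPI1 and CTSB. Both CPI203 libraries lay above both DMSO libraries for 32 genes (background 39.2%) and below for 4 (background 41.7%). Of the 32 higher calls, 27 passed with each library left out in turn, and the count of higher calls was between 26 and 32 under the other settings.

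With SGC-CBP30 the same genes split in both directions, and the changes were small. Of the 43, 10 (23.3%) were higher at an adjusted p under 0.05 (limma, Benjamini-Hochberg), against 25.6% of all genes tested, 5 (11.6%) were lower, against 14.8% of all genes, and 28 did not pass. These shares were near those of all genes, and so was the median log2 change, which was 0.07 for the 43 genes and 0.07 for all. SQSTM1 alone was higher at 1.5-fold or more (2.33%, against 3.47% of all genes), and 0 were lower at that size (against 3.79%). Both SGC-CBP30 libraries lay above both DMSO libraries for 21 genes (background 45.9%) and below for 11 (background 27.2%). After scaling each library to the same median, 7 of the 43 were higher and 10 lower, against 2435 higher and 3120 lower of all 14732 genes tested. The share of higher calls among all genes called moved from 63.4% to 43.8%. That scaling also left SQSTM1 under 1.5-fold. With all 4 DMSO libraries as controls 4 of the 43 were higher and 3 lower, against 1409 higher and 710 lower of all genes tested. The count of lower genes was 3 without DMSO replicate 2 and 2 without SGC-CBP30 replicate 2.

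**Figure D2:**
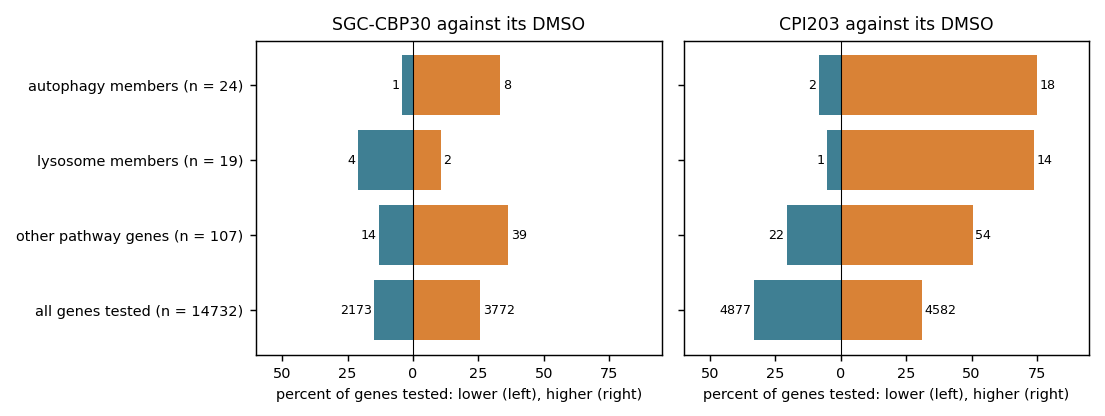
Percent of genes higher (right) and lower (left) at an adjusted p under 0.05 for each compound, with the number of genes at each bar, for the autophagy and lysosome genes, other genes of these pathways and all genes tested. With CPI203, 18 of 24 autophagy (75%) and 14 of 19 lysosome genes (73.7%) were higher, against 31.1% of all genes tested. With SGC-CBP30 the counts were 8 (33.3%) and 2 (10.5%), against 25.6% of all genes, and the groups were not tested against each other.

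**Figure D3:**
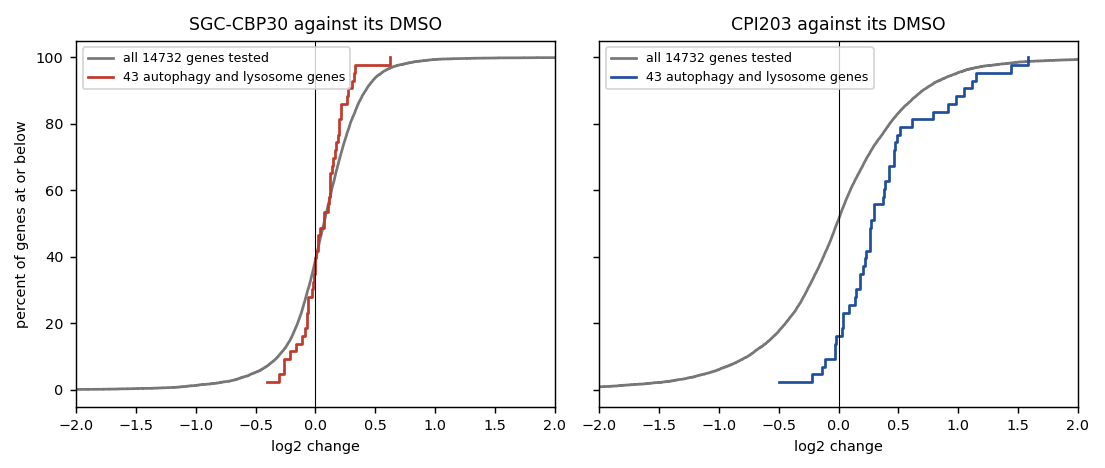
Cumulative percent of genes by log2 change for the 43 genes (colored) and all 14732 genes tested (gray), for SGC-CBP30 (left) and CPI203 (right). The colored curve lies to the right of the gray one with CPI203, with medians of 0.27 and -0.01, and crosses it with SGC-CBP30, where both medians were 0.07.

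The largest rise of the 43 genes with either compound was that of the cargo receptor gene SQSTM1. This gene (chr5:179233387-179265078 in the deposited positions, build hg19) encodes p62, which links ubiquitin-marked cargo to ATG8 proteins. It was at 208 and 203 RPKM in DMSO and 324 and 309 RPKM with SGC-CBP30, and at 164 and 160 RPKM in DMSO and 485 and 486 RPKM with CPI203. The treated and DMSO libraries did not overlap in either experiment, and the CPI203 libraries were the highest of the 8. With SGC-CBP30, SQSTM1 rose by 0.62 ± 0.03 (log2 change ± SE) (adjusted p = 1.48e-06, limma) and by 1.58 ± 0.03 with CPI203 (adjusted p = 9.4e-10, limma). OPTN (chr10:13141448-13180291), which encodes optineurin, a receptor for damaged mitochondria and bacteria, was at 26.5 and 26.7 RPKM in DMSO and 25.1 and 24.8 RPKM with SGC-CBP30. In the other experiment OPTN was at 21.1 and 19.6 RPKM in DMSO and 43.4 and 47.1 RPKM with CPI203. The SGC-CBP30 libraries lay slightly under their controls and the CPI203 libraries far above theirs. OPTN rose by 1.15 ± 0.06 with CPI203 (adjusted p = 1.42e-07, limma), and its change with SGC-CBP30 was -0.09 ± 0.06 (adjusted p = 0.221, limma).

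The 2 listed initiation genes, ULK1 and ATG13, rose with both compounds. ULK1 (chr12:132379195-132407712) encodes the kinase that starts autophagosome formation. It was at 6.59 and 6.92 RPKM in DMSO and 8.44 and 8.49 RPKM with SGC-CBP30, and at 5.67 and 5.18 RPKM in DMSO and 14.7 and 15 RPKM with CPI203. The libraries of each treatment lay close together and did not overlap with their controls. ULK1 rose 1.25-fold with SGC-CBP30 (log2 change 0.32 ± 0.07, adjusted p = 0.00773, limma) and 2.71-fold with CPI203 (1.44 ± 0.07, adjusted p = 2.09e-07, limma). ATG13, a scaffold of the ULK1 complex, was at 31.8 and 32.3 RPKM in DMSO and 35.6 and 36.5 RPKM with SGC-CBP30, and at 28.7 and 27.7 RPKM in DMSO and 37.4 and 38.3 RPKM with CPI203. Its levels also separated in both experiments, by smaller steps than those of ULK1. ATG13 rose by 0.17 ± 0.04 with SGC-CBP30 and by 0.42 ± 0.04 with CPI203. The SGC-CBP30 call of ATG13 did not pass without DMSO replicate 1 (adjusted p = 0.0693, limma) or without SGC-CBP30 replicate 2 (adjusted p = 0.0974, limma). Of the 2 initiation genes of the wider list, RB1CC1 rose by 0.81 and ATG101 fell by 0.23 on the log2 scale with CPI203, and neither passed with SGC-CBP30.

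For the 3 listed genes of the class III lipid kinase complex, changes were small or could not be read from all libraries. Of 5 further genes of this group in the wider list, 4 were higher with CPI203, 2 of them at 1.5-fold or more, with a median of 0.58. With SGC-CBP30, 3 of these were higher and 1, RUBCN, was lower (-0.41). BECN1, which encodes the Beclin 1 subunit, was at 32.4 RPKM in the DMSO library with a value and 35.4 and 35.1 RPKM with SGC-CBP30. Beside CPI203 it was at 34.0 RPKM in 1 DMSO library and 44.5 and 43.6 RPKM with CPI203. A fit that used the 6 libraries with a value, added after the data were seen, gave a log2 change of 0.12 ± 0.05 with SGC-CBP30 (adjusted p = 0.114, limma) and of 0.37 ± 0.05 with CPI203 (adjusted p = 0.00052, limma). That fit assumed that the lone DMSO library of each experiment varied like the treated pairs. ATG14, the subunit that directs the complex to autophagy, was the least abundant of the 43 autophagy and lysosome genes tested. It was between 2.42 and 2.48 RPKM in DMSO and 3.01 and 3.09 RPKM with SGC-CBP30, a log2 change of 0.31 ± 0.12 (adjusted p = 0.0604, limma). In the CPI203 experiment ATG14 was at 2.32 and 2.45 RPKM in DMSO and 2.84 and 3.07 RPKM with CPI203, a change of 0.30 ± 0.12. That rise had an adjusted p of 0.0462 (limma) and did not pass with any 1 of the 8 libraries left out, where the adjusted p reached 0.187. UVRAG, of the complex that acts on endosome maturation, overlapped between treated and DMSO libraries in both experiments.

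All 5 listed genes of membrane growth rose with CPI203. ATG2A, a lipid transfer protein, had the largest change of the group, from 6.29 and 5.29 RPKM in DMSO to 11.5 and 12.6 RPKM (log2 change 1.05 ± 0.09, adjusted p = 6.28e-06, limma). VMP1 and ATG9A, both lipid scramblases, rose by 0.52 ± 0.09 and 0.39 ± 0.07, and WIPI2, which binds the lipid made by the class III complex, by 0.46 ± 0.04. Its relative WIPI1 was at 3.25 and 2.89 RPKM in DMSO and 5.43 and 5.31 RPKM with CPI203, a rise of 0.79 ± 0.24 (adjusted p = 0.017, limma). The WIPI1 call was lost without either CPI203 library (adjusted p = 0.0615 without replicate 1 and 0.0536 without replicate 2, limma) or without DMSO replicate 2 (0.0815). With SGC-CBP30, WIPI2 alone of the 5 passed, from 28.9 and 29.6 RPKM to 32.6 and 31.8 RPKM (0.14 ± 0.04, adjusted p = 0.0298, limma). The WIPI2 call was lost with any 1 of the 4 libraries of that experiment left out, with adjusted p of 0.129 and 0.067 without DMSO replicates 1 and 2, and 0.147 and 0.0855 without SGC-CBP30 replicates 1 and 2 (limma). WIPI1 was at 2.15 and 3.99 RPKM in DMSO and 2.72 and 2.04 RPKM with SGC-CBP30, so the DMSO replicates spanned the treated library with the higher value.

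The 7 listed genes of the conjugation machinery showed changes of at most 0.42 on the log2 scale with either compound. Of 4 further genes of this group in the wider list, 3 were higher and 1 was lower with SGC-CBP30. With CPI203, 1 of these was higher, 1 was lower and 2 did not pass. The largest rise among them was that of ATG10, at 0.72 with SGC-CBP30 and 0.52 with CPI203. With SGC-CBP30, ATG4A and ATG12 of the 7 genes rose. ATG4A, a protease that trims ATG8 proteins, was at 13.3 and 14.5 RPKM in DMSO and 17.3 and 17.8 RPKM with SGC-CBP30 (0.33 ± 0.06, adjusted p = 0.00301, limma). In the CPI203 experiment ATG4A was at 15.5 and 14.5 RPKM in DMSO and 18.2 and 17.9 RPKM with CPI203 (0.26 ± 0.06, adjusted p = 0.00469, limma). Treated libraries lay above the DMSO libraries in both experiments. ATG12, a ubiquitin-like protein joined to ATG5, was at 17.3 and 16.9 RPKM in DMSO and 20.2 and 21.0 RPKM with SGC-CBP30 (0.27 ± 0.06, adjusted p = 0.00494, limma). It was at 18.2 and 19.6 RPKM in DMSO and 22.3 and 23.0 RPKM with CPI203 (0.26 ± 0.06, adjusted p = 0.00256, limma). The steps were thus of like size for both genes with both compounds, and the 95% interval of the difference between the compounds ran from -0.13 to 0.27 for ATG4A and from -0.17 to 0.19 for ATG12. With all 4 DMSO libraries as controls the SGC-CBP30 call of ATG12 was lost (adjusted p = 0.107, limma).

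ATG4B and ATG5 also rose with CPI203, by 0.26 ± 0.05 and 0.42 ± 0.12, and the ATG4B call was lost with all 4 DMSO libraries as controls (adjusted p = 0.0576, limma). ATG5 ranged from 10.8 to 11.2 RPKM in DMSO and was at 16.6 and 13.1 RPKM with CPI203, and its call was lost without CPI203 replicate 1 (log2 change 0.25, adjusted p = 0.0927, limma) or DMSO replicate 2 (0.0527). ATG3, the enzyme that transfers ATG8 proteins to lipid, fell by 0.14 ± 0.05 on the log2 scale with CPI203, from 50.3 and 48.9 RPKM to 46.6 and 43.5 RPKM (adjusted p = 0.0288, limma). The ATG3 call was lost without DMSO replicate 1 (adjusted p = 0.121, limma) or CPI203 replicate 2 (log2 change -0.09, adjusted p = 0.196). With SGC-CBP30, ATG3 was at 52.0 and 48.9 RPKM against 48.2 and 47.6 RPKM in DMSO, a change of 0.07 ± 0.05 that did not pass. ATG7, which activates ATG8 proteins and ATG12, and ATG16L1, which places the conjugation enzyme on the membrane, passed with neither compound.

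All 4 ATG8 genes tested rose with CPI203, by unequal amounts. GABARAPL1 (chr12:10365056-10375727) was at 4.79 and 4.40 RPKM in DMSO and 11.2 and 9.0 RPKM with CPI203. MAP1LC3B (chr16:87417600-87438385), which encodes LC3B, the usual marker protein of autophagosomes, was at 51.2 and 52.1 RPKM in DMSO and 102 and 93.6 RPKM with CPI203. Both pairs of treated libraries were well above their controls. The log2 change was 1.11 ± 0.12 for GABARAPL1 (adjusted p = 2.18e-05, limma) and 0.92 ± 0.04 for MAP1LC3B (adjusted p = 1.47e-07, limma). The more abundant GABARAPL2 rose by 0.30 ± 0.04, from 109 and 114 RPKM to 133 and 140 RPKM. GABARAP rose by 0.15 ± 0.04, from 177 and 172 RPKM to 200 and 187 RPKM, a call that was lost without CPI203 replicate 1 (adjusted p = 0.0973, limma) or DMSO replicate 2 (0.0659).

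With SGC-CBP30, GABARAPL2 and MAP1LC3B rose and the other two did not pass. GABARAPL2 was at 91.3 and 94.1 RPKM in DMSO and 110 and 113 RPKM with SGC-CBP30 (0.26 ± 0.04, adjusted p = 0.000871, limma). MAP1LC3B was at 47.9 and 48.1 RPKM in DMSO and 55.2 and 56.1 RPKM with SGC-CBP30 (0.21 ± 0.04, adjusted p = 0.00463, limma). Neither gene overlapped with its own DMSO libraries, but with all 4 DMSO libraries as controls both calls were lost (adjusted p = 0.362 for GABARAPL2 and 0.104 for MAP1LC3B, limma). The DMSO libraries of the other experiment, at 109 and 114 RPKM, spanned the treated libraries for GABARAPL2. GABARAPL1 was at 5.30 and 4.71 RPKM in DMSO and 5.21 and 5.67 RPKM with SGC-CBP30, and GABARAP at 159 and 170 RPKM and 163 and 161 RPKM, so both overlapped with their controls. The values of MAP1LC3B are uncertain in one respect, since its near-identical copy MAP1LC3B2 was listed at levels that moved with it, from 42.8 and 43.8 RPKM in DMSO to 79.2 and 72.4 RPKM with CPI203, and reads of the copies cannot be separated here.

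TFEB fell with CPI203 and TFE3 with SGC-CBP30. TFEB was at 10.4 and 9.50 RPKM in DMSO and 6.21 and 7.96 RPKM with CPI203, and at 10.0 and 10.1 RPKM in DMSO and 9.52 and 9.15 RPKM with SGC-CBP30. Both treated groups lay under their controls, with a wider spread in the CPI203 libraries. TFEB fell by 0.50 ± 0.11 on the log2 scale with CPI203 (adjusted p = 0.00265, limma), and its change with SGC-CBP30 was -0.11 ± 0.11 (adjusted p = 0.451, limma). The CPI203 change of TFEB was -0.32 without CPI203 replicate 1 and -0.67 without CPI203 replicate 2. TFE3 was at 22.9 and 24.6 RPKM in DMSO and 20.5 and 19.0 RPKM with SGC-CBP30, and at 20.5 and 19.9 RPKM in DMSO and 21.2 and 20.3 RPKM with CPI203. It separated from its controls with SGC-CBP30 and overlapped with them with CPI203. TFE3 fell by 0.26 ± 0.06 with SGC-CBP30 (adjusted p = 0.00727, limma), a call lost without DMSO replicate 2 (adjusted p = 0.0594, limma) or SGC-CBP30 replicate 2 (0.0685), or with all 4 DMSO libraries as controls (0.305). MITF was low, at 0.699 and 0.578 RPKM in DMSO against 0.949 and 1.26 RPKM with SGC-CBP30, and at 0.703 and 0.632 RPKM in DMSO against 1.36 and 1.11 RPKM with CPI203. The treated libraries were the higher ones in both experiments, without a test.

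The 4 listed lysosomal membrane genes rose with CPI203, and CD63 moved in opposite directions with the compounds. CD63, a tetraspanin of late endosomes and lysosomes, was at 170 and 175 RPKM in DMSO and 150 and 148 RPKM with SGC-CBP30. With CPI203 it was at 203 and 195 RPKM, against 178 and 174 RPKM in DMSO. With SGC-CBP30, CD63 fell by 0.21 ± 0.03 (log2) (adjusted p = 0.00109, limma) and with CPI203 it rose by 0.18 ± 0.03 (adjusted p = 0.00105, limma). LAMP2, which has a role in fusion with autophagosomes, had the largest rise of the group with CPI203, from 64.2 and 68.5 RPKM to 92.9 and 90.2 RPKM (0.46 ± 0.05). LAMP2 was at 65.4 and 62.5 RPKM in DMSO and 59.5 and 62.1 RPKM with SGC-CBP30, where its change of -0.07 ± 0.05 did not pass. After median scaling LAMP2 was also called lower with SGC-CBP30. MCOLN1 rose by 0.38 ± 0.09 with CPI203, from 13.9 and 12.7 RPKM to 15.7 and 19.3 RPKM, and by 0.24 without CPI203 replicate 2 or 0.53 without CPI203 replicate 1. With all 4 DMSO libraries as controls the calls of MCOLN1 (adjusted p = 0.149, limma) and LAMP1 (0.0594) were lost. LAMP1, whose window held the most E-box cores, rose by 0.14 ± 0.04, from 55.6 and 55.8 RPKM to 59.6 and 62.9 RPKM, a call lost without CPI203 replicate 2 (adjusted p = 0.11, limma). With SGC-CBP30, LAMP1 was at 57.3 and 56.7 RPKM against 56.2 and 57.7 RPKM in DMSO, within the range of its controls. Of 6 further membrane genes in the wider list, 2 were higher with CPI203 (LAPTM4A and NPC1), 2 were lower (CLN3, at -0.72, and TMEM192, at -0.46) and 2 did not pass, with a median of -0.12.

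Among the 6 listed proteases that were tested, CPI203 raised CTSB, TPP1 and CTSA and lowered CTSZ. SGC-CBP30 lowered CTSZ, CTSL and CTSD and raised CTSB. Of 6 further proteases in the wider list, 1 was higher and 2 were lower with CPI203, with a median of -0.10. With SGC-CBP30, 3 of these were higher and 1 was lower, with a median of 0.13. CTSZ, which encodes the carboxypeptidase cathepsin Z, was at 43.3 and 44.8 RPKM in DMSO and 33.5 and 33.0 RPKM with SGC-CBP30, and at 42.6 and 40.8 RPKM in DMSO and 36.1 and 35.4 RPKM with CPI203. Treated libraries were the lower ones in both experiments. With SGC-CBP30, CTSZ fell by 0.40 ± 0.04 (log2) (adjusted p = 0.00013, limma) and by 0.22 ± 0.04 with CPI203 (adjusted p = 0.00133, limma), and was the only one of the 43 genes lower with both. CTSL, which encodes the cysteine protease cathepsin L, was at 20.9 and 19.7 RPKM in DMSO and 16.9 and 16.8 RPKM with SGC-CBP30, and at 20.6 and 21.3 RPKM in DMSO and 21.9 and 19.5 RPKM with CPI203. It fell by 0.26 ± 0.06 with SGC-CBP30 (adjusted p = 0.0101, limma), a call lost without DMSO replicate 1 (adjusted p = 0.0684, limma) or SGC-CBP30 replicate 2 (0.0557), and overlapped with its controls with CPI203. CTSD, the aspartic protease cathepsin D, was at 109 and 115 RPKM in DMSO and 98.8 and 101 RPKM with SGC-CBP30. Its fall of 0.16 ± 0.05 with SGC-CBP30 (adjusted p = 0.0277, limma) was lost without DMSO replicate 2 (adjusted p = 0.167, limma), SGC-CBP30 replicate 1 (0.124) or SGC-CBP30 replicate 2 (0.078). With all 4 DMSO libraries as controls the change of CTSD turned to 0.0243.

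CTSB, which encodes the cysteine protease cathepsin B, had the largest rise of the listed proteases. It was at 118 and 120 RPKM in DMSO and 183 and 181 RPKM with CPI203 (0.61 ± 0.03, adjusted p = 3.28e-07, limma). In the SGC-CBP30 experiment it was at 90.5 and 94.1 RPKM in DMSO and 98.0 and 100 RPKM with SGC-CBP30 (0.10 ± 0.03, adjusted p = 0.0344, limma). The treated libraries were higher than their own controls in both experiments, although both SGC-CBP30 libraries were lower than the DMSO libraries of the other experiment. With all 4 DMSO libraries as controls the SGC-CBP30 change of CTSB turned to -0.0804, and its call was lost without DMSO replicate 1 (adjusted p = 0.182, limma), SGC-CBP30 replicate 1 (0.0681) or SGC-CBP30 replicate 2 (0.187). TPP1, a tripeptidyl peptidase, and CTSA rose by 0.22 ± 0.04 and 0.18 ± 0.04 with CPI203, and the call of CTSA was lost with all 4 DMSO libraries as controls (adjusted p = 0.306, limma). CTSS, which encodes cathepsin S and was not tested, was at 1.14 and 0.951 RPKM in DMSO and 0.484 and 0.444 RPKM with SGC-CBP30, and at 0.852 and 1.06 RPKM in DMSO and 0.472 and 0.539 RPKM with CPI203.

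Of the 6 glycosidases and cofactors, NEU1 had the largest rise with CPI203. NEU1, the lysosomal sialidase, was at 54.9 and 52.3 RPKM in DMSO and 108 and 104 RPKM with CPI203, and at 56.2 and 57.5 RPKM in DMSO and 64.9 and 65.7 RPKM with SGC-CBP30. Neither treated group overlapped with its controls. NEU1 rose 1.97-fold with CPI203 (0.98 ± 0.04, adjusted p = 5.35e-08, limma) and 1.15-fold with SGC-CBP30 (0.20 ± 0.04, adjusted p = 0.00391, limma). GLA, GUSB and PSAP rose with CPI203 by between 0.20 and 0.27, while the enzymes HEXA and GAA had changes of -0.03 each and did not pass. With all 4 DMSO libraries as controls the calls of GUSB (adjusted p = 0.53, limma) and GLA (0.0535) were lost, and GUSB with CPI203, at 57.4 and 58.5 RPKM, lay near or under the other DMSO pair at 58.5 and 63.1 RPKM. With SGC-CBP30, none of these 5 passed at an adjusted p under 0.05 (limma), with log2 changes between -0.06 and 0.07.

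The 3 listed subunits of the V-ATPase, the proton pump that acidifies the lysosome, rose with CPI203. ATP6V1A, the catalytic subunit, went from 34.7 and 37.1 RPKM to 51.0 and 49.9 RPKM (0.49 ± 0.06), ATP6V0D1 from 60.4 and 55.7 RPKM to 80.8 and 80.1 RPKM (0.47 ± 0.05) and ATP6V1H from 37.2 and 36.3 RPKM to 47.6 in both libraries (0.37 ± 0.05). The groups did not overlap for any of the 3. With SGC-CBP30 the changes were -0.01, 0.12 and 0.12, and none passed. Of 14 further V-ATPase genes in the wider list, 4 were higher with CPI203 (28.6%), near the 31.1% of all genes tested. Of the same 14, 1, ATP6V0B, was lower (-0.17), or 7.14% against 33.1% of all genes, and 9 did not pass. Their median log2 change was 0.07, so the rise of the 3 listed subunits was not general among V-ATPase genes.

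**Figure D4:**
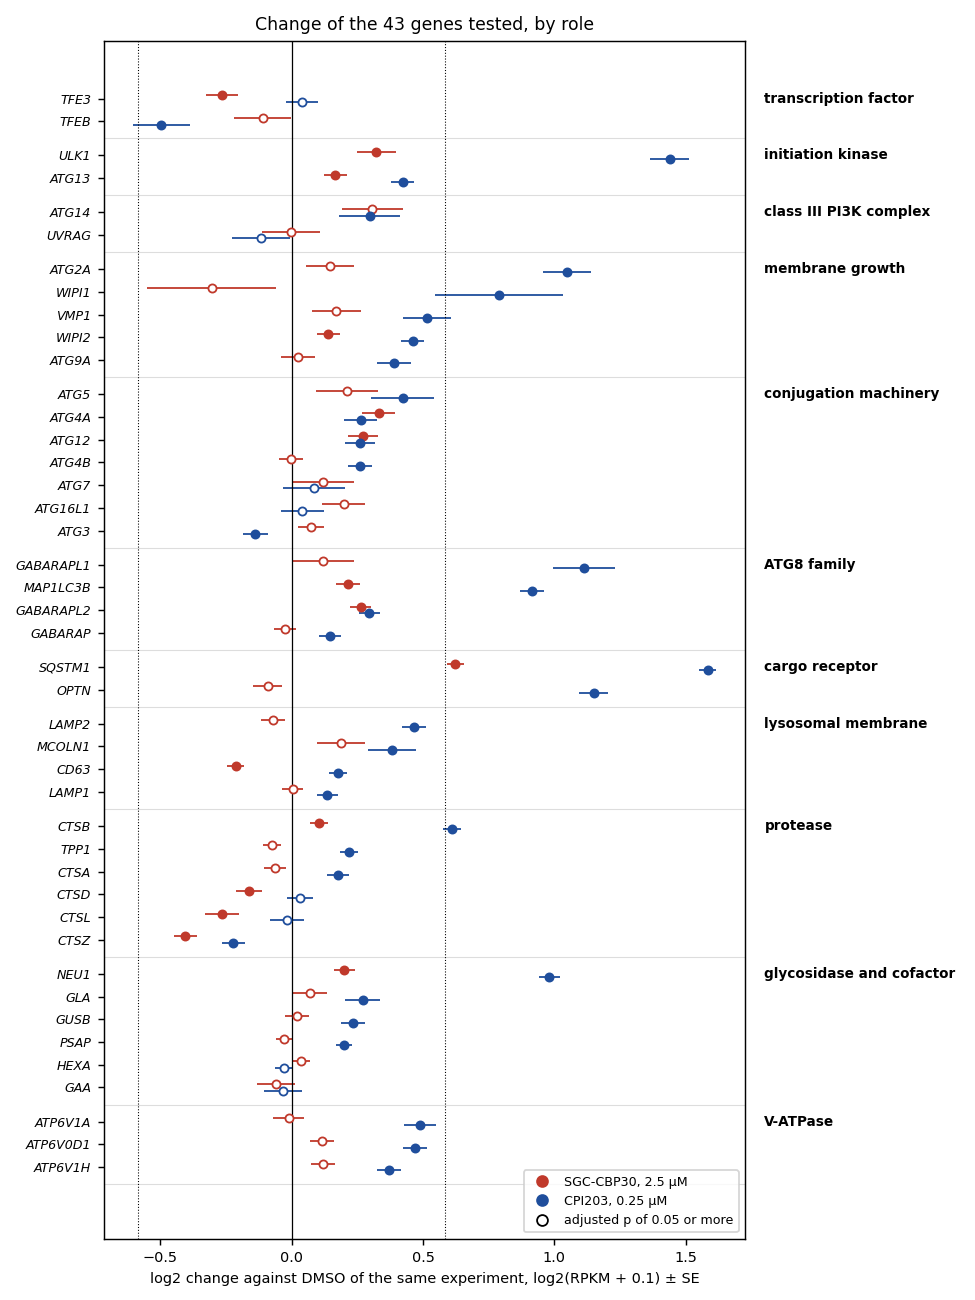
Log2 change ± SE against DMSO of the same experiment for the 43 genes by role, SGC-CBP30 in red and CPI203 in blue, with open circles for an adjusted p of 0.05 or more and dotted lines at 1.5-fold. The CPI203 points of 9 genes lie beyond the right dotted line, and SQSTM1 is the only gene whose SGC-CBP30 point does.

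**Figure D5:**
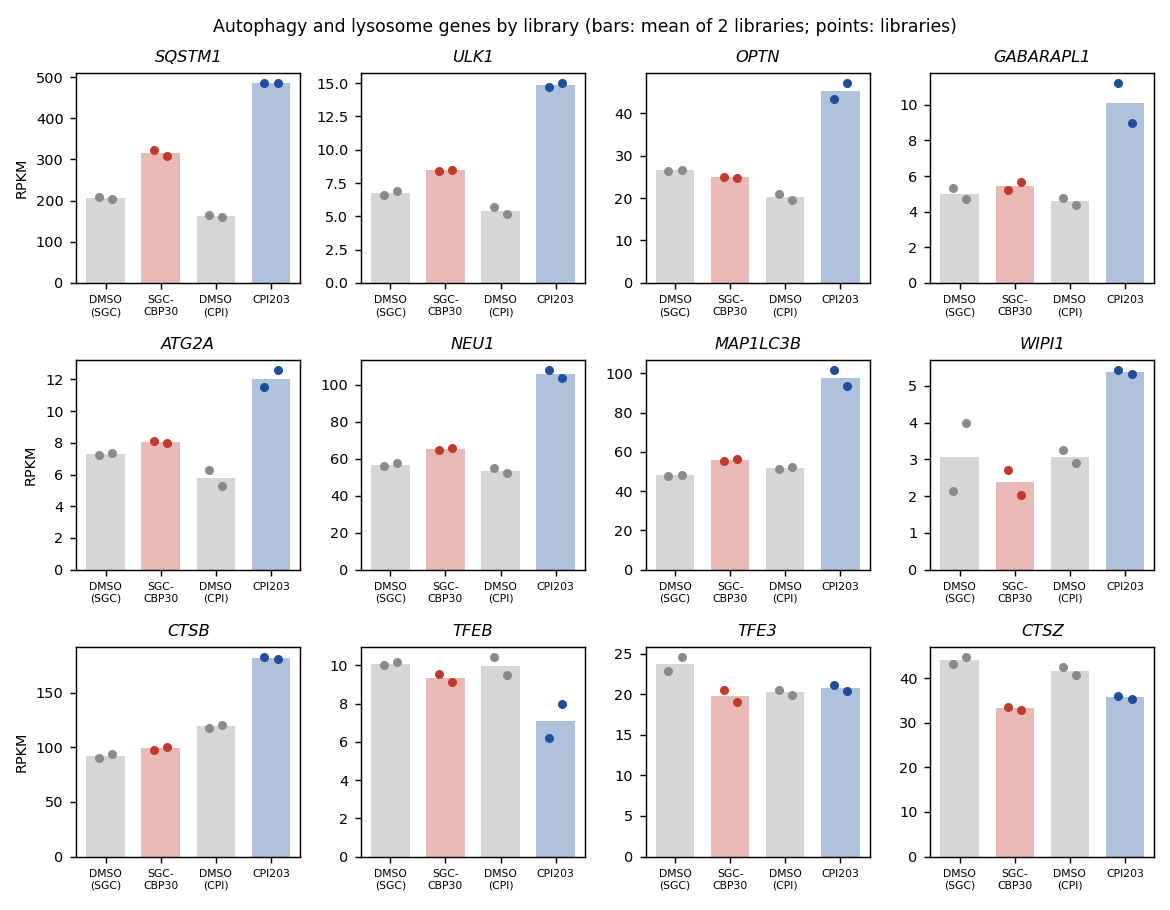
RPKM of the 9 genes at 1.5-fold or more with CPI203 and of TFEB, TFE3 and CTSZ, with bars for the mean of 2 libraries, points for the libraries and the DMSO of each experiment in gray. The CPI203 points lie above the DMSO points in the 9 genes and under them in TFEB and CTSZ.

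The difference between the compounds was tested gene by gene as the SGC-CBP30 change minus the CPI203 change. The change was more positive with CPI203 for 27 of the 43 genes (62.8%, adjusted p under 0.05, limma), against 21.0% of all genes tested, and more positive with SGC-CBP30 for 1, ATG3, against 29.3% of all genes. At 1.5-fold or more the difference was in the direction of CPI203 for 8 (against 9.68% of all genes), which were OPTN, ULK1, WIPI1, GABARAPL1, SQSTM1, ATG2A, NEU1 and MAP1LC3B. The largest difference was that of OPTN, at -1.24 ± 0.08 (adjusted p = 2.37e-06, limma), followed by ULK1 at -1.12 ± 0.11 (adjusted p = 2.31e-05, limma). For TFEB the difference was 0.39 ± 0.15 and did not pass (adjusted p = 0.0612, limma), so its fall with CPI203 is not shown to differ from its change with SGC-CBP30. The difference of WIPI1, at -1.09 ± 0.35, rested on libraries with a wide spread and ranged from -1.53 to -0.66 with 1 library left out. Of the 27 calls more positive with CPI203, 20 passed with each library left out in turn. The call of ATG3 was lost without DMSO replicate 1 or 2 or SGC-CBP30 replicate 1 of the SGC-CBP30 experiment, or DMSO replicate 1 or CPI203 replicate 2 of the other, with an adjusted p of up to 0.105 (limma).

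The compounds also shared some calls. The 10 genes higher with SGC-CBP30 were all higher with CPI203 (10 of 43, against 13.7% of all genes tested), and they were ULK1, ATG13, WIPI2, ATG4A, ATG12, MAP1LC3B, GABARAPL2, SQSTM1, CTSB and NEU1. For ATG4A, ATG12 and GABARAPL2 the difference between the compounds did not pass, with a 95% interval for GABARAPL2 of -0.16 to 0.09. Across the 43 genes, the size of the change was larger with CPI203 for 31. The matching share over all genes was not computed, so this count is not shown to be particular to the set. Over all genes, CPI203 also had more calls at 1.5-fold (13.4% higher and 14.4% lower) than SGC-CBP30 (3.47% and 3.79%). At 0.25 and 2.5 µM the doses were not matched, so the sizes of the changes stand side by side and do not rank the compounds.

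The E-box core was found in windows of genes that rose and of genes that did not. Of the genes higher with CPI203 that had a window, 7 of 27 held CACGTG (25.9%), and of those not higher, 3 of 9 (33.3%). Of the 9 genes at 1.5-fold or more with CPI203, 8 had a window and 1, NEU1, held the core. GAA, with both copies in the extended form, was at 38.1 and 33.8 RPKM in DMSO and 32.8 and 37.6 RPKM with CPI203, which overlapped. The counts are small and no test was made.

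A further 118 genes of the same pathways were listed, among them other receptors, hydrolases, pump subunits and regulators of mTORC1, the kinase complex that restrains autophagy, and 107 were tested. With CPI203, 54 (50.5%) were higher, against 31.1% of all genes, and 22 (20.6%) lower, against 33.1%, with a median log2 change of 0.13. At 1.5-fold or more, 27 (25.2%) were higher, against 13.4%, and 5 (4.67%) lower, against 14.4%. With SGC-CBP30, 39 (36.4%) were higher, against 25.6%, and 14 (13.1%) lower, near the 14.8% of all genes, with a median of 0.11. At 1.5-fold or more with SGC-CBP30, 5 (4.67%) were higher, against 3.47%, and 1 was lower, against 3.79%. At an adjusted p under 0.05, the share of higher genes was thus above that of all genes in both comparisons for this wider list. For the 43 genes it was above with CPI203 only. Both lists were chosen with earlier results of these data known, so these shares are descriptive. The wider list was not run under the other settings, and median scaling moved the SGC-CBP30 calls of all genes from 63.4% higher to 43.8%.

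Among the largest changes of the wider list were those of a mitophagy receptor and of mTORC1 regulators. BNIP3, a mitophagy receptor induced by low oxygen, was at 9.17 and 9.82 RPKM in DMSO and 35.4 and 36.3 RPKM with SGC-CBP30, a rise of 1.91 ± 0.06. In the CPI203 experiment BNIP3 was at 17.2 and 16.6 RPKM in DMSO and 16.9 and 17.5 RPKM with CPI203, and it overlapped. FUCA1, a lysosomal fucosidase, and ATG10, which conjugates ATG12 to ATG5, rose with SGC-CBP30 by 0.88 ± 0.09 and 0.72 ± 0.08. DEPTOR, an inhibitor of mTOR that is abundant in some myelomas, was at 156 and 154 RPKM in DMSO and 78.0 and 76.2 RPKM with SGC-CBP30, and at 167 and 172 RPKM in DMSO and 37.6 and 39.0 RPKM with CPI203. It was lower in every treated library, and fell by 1.01 ± 0.04 with SGC-CBP30 and by 2.14 ± 0.04 with CPI203.

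SESN3, a stress-induced inhibitor of mTORC1, moved in opposite directions. It was at 8.16 and 7.30 RPKM in DMSO and 5.47 and 5.68 RPKM with SGC-CBP30, and at 8.76 and 10.0 RPKM in DMSO and 27.0 and 27.9 RPKM with CPI203. SESN3 fell by 0.46 ± 0.08 with SGC-CBP30 and rose by 1.54 ± 0.08 with CPI203. TCIRG1, a membrane subunit of the V-ATPase, fell by 0.42 ± 0.09 with SGC-CBP30. With CPI203, CTSK, which encodes cathepsin K, rose by 2.35 ± 0.16 from 0.838 and 0.842 RPKM to 4.95 and 4.44 RPKM, and ZFYVE1, a protein of the sites where autophagosomes form, rose by 1.29 ± 0.10. MLST8, a subunit of the mTOR complexes, fell by 0.82 ± 0.05, from 66.3 and 62.4 RPKM to 36.0 and 36.8 RPKM, and NAGPA, which completes the mannose 6-phosphate tag of lysosomal enzymes, fell by 0.77 ± 0.06.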

How the data were processed

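RNA was prepared from LP-1 cells with on-column DNase digestion, and libraries were made and sequenced by an outside provider. The authors deposited 1 RPKM value for each gene in each library. The submitters' processing notes name TopHat 1.4.1, Cufflinks and build hg19, and the annotation release is not given in the sources used here. Each DMSO pair was matched to the compound whose library names belong to the same naming series. A further 24 columns of the table were not used.

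Values were converted to log2(RPKM + 0.1), which understates changes of low genes, for 14732 genes whose mean reached 1 RPKM, and 27 genes that lacked a value in some library were dropped. limma 3.58.1 in R 4.3.3 was fitted to 4 group means over 8 libraries with an intensity trend (4 residual and 5.48 prior degrees of freedom), with two-sided tests and Benjamini-Hochberg adjustment, passing at an adjusted p under 0.05. The files hold no counts, so no count model was run. On simulated data, 200 of 14732 genes were changed, each by more than 1.5-fold, and a call also had to reach 1.5-fold. Of the changed genes, 92.5% were called for SGC-CBP30 with 4 unchanged genes and 93.5% for CPI203 with 5. Smaller changes called at an adjusted p alone, and data with as many changed genes as these, were not simulated. The authors describe the libraries as biological replicates.

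The members and lists were chosen with earlier results of these data known. Library values were given for the 4 largest rises and 4 largest falls that passed with each compound (3 falls with CPI203) and for members of their roles. Of the wider list, the 3 largest rises and falls with each compound were named. Further members were given in full where their values were described. Depth was estimated from the steps of RPKM values under 0.5 in genes of at least 800 bases by GENCODE lengths, of which 61.9% to 73.0% were whole reads within 0.1, so it is approximate. Promoter windows came from RefSeq, which uses another build than the deposited table, and 7 members had more than 1 start. The extended core was added after the windows had been searched for other forms. Extra rows of TFE3, GLA and NEU1 on alternative sequences, 9 in all, were at 0 and were left out. Alternatives were a pseudocount of 1, no filter, a minimum mean of 5 RPKM, median scaling, quantile normalization, all 4 DMSO libraries, a replicate block, separate fits, no trend and each library left out. Python 3.11.15, pandas 2.3.3, numpy 2.4.6 and matplotlib 3.10.9 were used.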

Additional observations from a re-analysis of the deposited data

How the results depend on the processing

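With CPI203 the count of higher genes was between 26 and 32, and that at 1.5-fold between 8 and 9, under the settings other than a left-out library. With SGC-CBP30 the counts moved more. Lower genes numbered 5 as reported, 3 with no filter on low values, 10 after median scaling and 3 with all 4 DMSO libraries as controls, where higher genes numbered 4 in place of 10. That setting ended the SGC-CBP30 calls of ATG13, WIPI2, ATG12, MAP1LC3B, GABARAPL2, CTSB, TFE3 and CTSD, and the CPI203 calls of ATG3, ATG4B, LAMP1, MCOLN1, CTSA, GLA and GUSB. Median scaling left 0 genes higher at 1.5-fold, turned the median log2 change from 0.07 to -0.0085 and moved that of all genes to -0.0061. It ended the higher SGC-CBP30 calls of ATG13, WIPI2 and CTSB. It also added 5 lower SGC-CBP30 calls, those of OPTN, LAMP2, CTSA, TPP1 and PSAP, which were all higher with CPI203. With all 4 DMSO libraries the SGC-CBP30 change of CTSB turned to -0.0804 (adjusted p = 0.678, limma) and that of CTSD to 0.0243 (adjusted p = 0.914, limma). Genes more positive with SGC-CBP30 than with CPI203 numbered 1 as reported, 0 with no filter, median scaling, quantile normalization or no intensity trend, and 2 at a minimum mean of 5 RPKM. The cause was not tested.

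With 1 library left out in turn, SGC-CBP30 gave 7 to 11 higher and 2 to 5 lower genes, with 0 to 1 lower at 1.5-fold (WIPI1 without DMSO replicate 1, at -0.74) and a median of 0.02 to 0.08. The count of lower genes was 3 without DMSO replicate 2 and 2 without SGC-CBP30 replicate 2. CPI203 gave 28 to 32 higher and 2 to 3 lower genes, with 8 to 9 higher and 0 to 1 lower at 1.5-fold (TFEB without CPI203 replicate 2, at -0.67). The difference between the compounds gave 0 to 1 and 21 to 27 genes. Of the 10 and 5 SGC-CBP30 calls, 4 and 2 passed under every alternative, and of the 32 and 3 CPI203 calls, 22 and 2 did.

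With the replicate number as a block, SGC-CBP30 gave 8 higher and 4 lower genes, CPI203 31 and 3, and the difference 24 more positive with CPI203 and 1 with SGC-CBP30. The block ended the SGC-CBP30 calls of WIPI2, CTSB and CTSD and the CPI203 call of ATG14. The study describes its DMSO controls as paired without saying that the number marks the pair, and the correlation of replicate deviations was -0.172 in the SGC-CBP30 experiment and -0.0395 in the CPI203 experiment, so they were not taken to pair the libraries. With the SGC-CBP30 numbers crossed, chosen after seeing the data, SGC-CBP30 gave 9 higher and 4 lower genes. MITF and CTSS were left out of the tests by the filter at 1 RPKM.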
